A study of Mus musculus with 6 samples.

Results

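The genes described here are 41 mouse genes of macrophages, monocytes, neutrophils and lymphocytes, a set chosen by function, out of 54532 genes in a kidney RNA-seq table. They are grouped here by role: 4 pan-leukocyte genes, 20 macrophage and monocyte genes, 4 genes of antigen presentation by MHC class II, 2 neutrophil genes, 3 innate sensing receptors and 8 lymphocyte genes. The study asks what extra adiponectin made inside the kidney does to that kidney. It compares 3 libraries of Control kidney with 3 libraries of KSPAPN kidney, each made from RNA of 3 mice pooled together. Control mice carry KsprtTA alone, and KSPAPN mice carry KsprtTA with TRE-Adiponectin. All are male on a C57BL/6 background, ate normal chow and took doxycycline in chow at 600 mg/kg for 4 days; no age is given. The Ksp promoter acts in tubular epithelium, so the transgene is not designed to be read in leukocytes. The labels call the Control genotype WT, and the text on the extracts speaks of liver where the tissue field says kidney.

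Resident macrophages lie between the tubules and capillaries of a healthy kidney, where they take up debris and immune complexes, and smaller numbers of dendritic cells, T cells, B cells and neutrophils sit beside them or pass through in blood. Macrophages depend on signalling through the CSF1 receptor and are recognised by complement C1q, Fc receptors and lysosomal proteins, while cells that present antigen to helper T cells carry MHC class II. Adiponectin is a hormone of adipocytes that is known for acting on macrophages as well as on epithelial cells.

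The labels on the groups were checked first. Adipoq, the gene for adiponectin, was read 2, 0 and 2 times in the Control libraries, and 24629, 17483 and 26811 times in those of KSPAPN. The groups are far apart, with next to nothing in Control (log2 fold change 13.73, SE 0.29, edgeR adjusted p 2.97e-09; without 1 library, 13.20 to 14.12). Kidney genes are plain in every library: Slc34a1, the phosphate carrier of the proximal tubule, averaged 1212 FPKM in Control and 1085 in KSPAPN. FPKM counts fragments per transcript length and library size, so that levels of different genes can be compared.

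In this kidney RNA the leukocyte genes are a small share of the whole. Their counts added up to 0.0523, 0.0441 and 0.0482% of each Control library and to 0.0624, 0.0402 and 0.0440% of each KSPAPN library. Only 17 of the 41 have a mean level of at least 1 FPKM, and 9 were too low to enter the test: Cd163, Itgam, Ly6c2, S100a8, S100a9, Cd3e, Cd3g, Cd79a and Ms4a1. The 4 class II genes stand at the top, Csf1r, C1qb, C1qa and Lyz2 come next, and the genes that define T cells and B cells lie near the bottom. In bulk RNA, fewer cells of a type and less RNA per cell cannot be told apart.

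**Figure D1:**
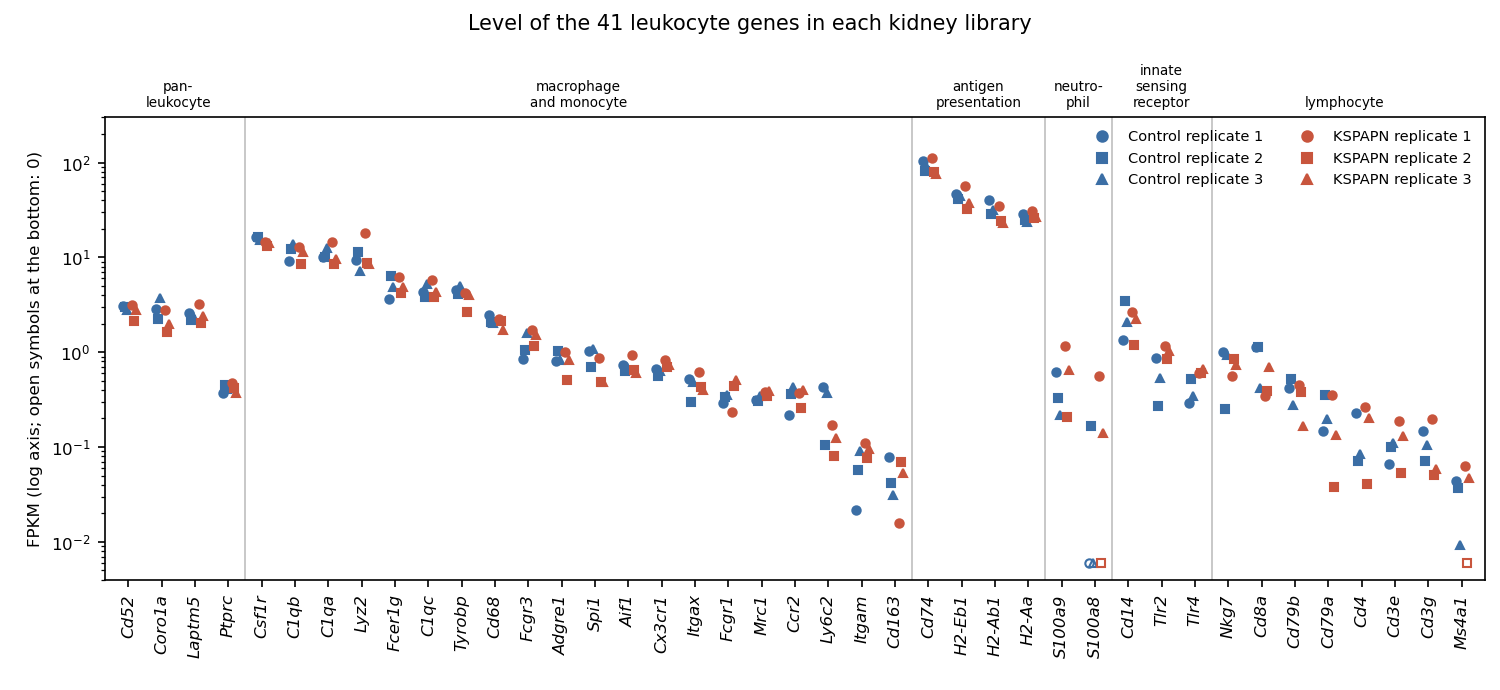
Level of each of the 41 genes in each library, on a log axis and ordered by level inside each role. Blue is Control and red is KSPAPN; the shape gives the replicate number, which names no pairing. Open symbols at the bottom are libraries with 0 counts.

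Of the 32 genes that entered the test, edgeR called 0 at an adjusted p below 0.05, where 2.65% of all 16017 tested genes were called. That background holds 63 genes higher in KSPAPN and 361 lower; the split is 71 and 195 when libraries are scaled by total counts, and 100 and 301 when trends with GC content and transcript length are removed. Leaving out 1 library moves it to between 5 (without Control library 1) and 162 higher, and between 34 (without the same library) and 571 lower, the largest without KSPAPN library 1. DESeq2 also called 0 of these genes, against 6.88% of the 13621 genes to which it gave an adjusted p. Fcgr1, Aif1, Cd4, Cd79b and Nkg7 had no DESeq2 adjusted p, so it could not call them. Limma on log2 FPKM with 1 added, with 0.1 added, and with 1 added and no filter also called 0 of these genes. Those fits called only 0.0385%, 0.0578% and 0.00340% of all genes. At an unadjusted p below 0.05, edgeR had 2 of 32, Tlr2 and Tlr4, both higher in KSPAPN, beside 18.7% of all genes in either direction and 7.52% in the higher direction. With no filter on low counts edgeR had 7 of 41, beside 13.0% of all genes: Tlr2, Tlr4 and Lyz2 higher, and Coro1a, Ly6c2, H2-Ab1 and Cd8a lower. DESeq2 had 3, Tlr2, Tlr4 and Cd8a, beside 9.31% of all genes. The limma fits had 2 (Csf1r lower, Tlr2 higher), 1 and 1 (Csf1r lower), beside 14.4%, 14.6% and 11.03% of all genes. The groups did not overlap in CPM, counts scaled to library size, for 3 genes: Cx3cr1 and Tlr4 lie above and Csf1r below, where 24.5% of all genes do not overlap.

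The log2 fold change of KSPAPN against Control was above 0 for 17 of these genes and below 0 for 15, with a median of 0.03 where the median of all tested genes is 0.01. The median was 0.10 under total counts, where all genes have 0.08, and 0.12 with GC and length removed, where all genes have 0.04. It moves with the library left out. Without KSPAPN library 1 it was -0.15, with 8 genes above 0 and 25 below, and without KSPAPN library 2 it was 0.13, with 24 above and 10 below. It was -0.01 without Control library 1, -0.05 without Control library 2, 0.07 without Control library 3 and 0.05 without KSPAPN library 3. Without KSPAPN library 1 the genes at an unadjusted p below 0.05 in edgeR numbered 6, beside 21.8% of all genes: Coro1a, Csf1r, Spi1, H2-Ab1 and H2-Eb1 lower, and Tlr4 higher. A p that misses the threshold does not show that a gene's level is the same in both groups, so the 95% interval of the log2 fold change is given below for each gene described closely. Each library averages a pool of mice, so these intervals rest on the spread between pools.

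**Figure D2:**
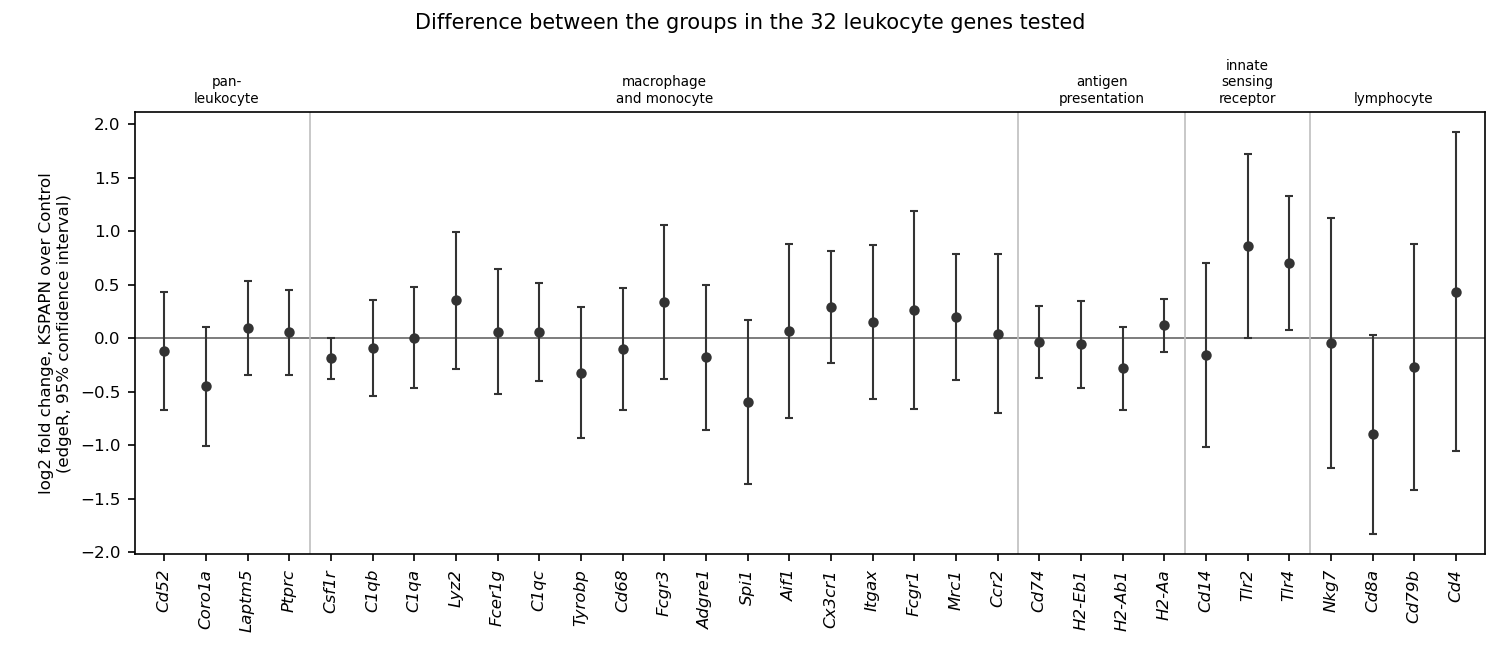
Log2 fold change of KSPAPN against Control for the genes that entered the edgeR test, with 95% intervals, ordered by role. The horizontal line marks 0.

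Among the pan-leukocyte genes, Ptprc encodes CD45, the phosphatase on all white blood cells (ENSMUSG00000026395, chr1:138062861-138175708 in GRCm38, GENCODE M21). It stood at 0.368, 0.450 and 0.410 FPKM in Control and 0.476, 0.424 and 0.369 in KSPAPN. Those levels interleave, and no library is apart from the rest. Its log2 fold change was 0.05 (SE 0.18, 95% interval -0.34 to 0.45, which is 0.789 to 1.37 on the fold scale; edgeR adjusted p 0.902). Its sign turns without Control library 1 (-0.02), without KSPAPN library 1 (-0.03) and with GC and length removed (-0.10). Cd52, a short glycoprotein anchored on lymphocytes and monocytes, is the most abundant of the 4, at 3.05, 3.01 and 2.78 FPKM in Control and 3.18, 2.12 and 2.76 in KSPAPN. KSPAPN library 2 is the low one and library 1 the high one, with a log2 fold change of -0.12 (SE 0.25, interval -0.67 to 0.43, edgeR adjusted p 0.838; 0.03 without library 2 and 0.10 with GC and length removed). The exons of Cd52 overlap those of Crybg2 on the opposite strand.

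Coro1a, an actin-binding protein of leukocytes, has the largest difference in that role with all libraries and TMM, the default scaling of edgeR. Its levels were 2.89, 2.26 and 3.70 FPKM in Control against 2.78, 1.65 and 1.99 in KSPAPN. KSPAPN library 1 sits inside the Control range and the others below it, giving a log2 fold change of -0.45 (SE 0.25, interval -1.004 to 0.11, edgeR adjusted p 0.369). It was -0.25 without Control library 3, -0.67 without KSPAPN library 1 and -0.26 with GC and length removed. Its exons overlap those of Bola2 on the opposite strand, and the strandedness of the libraries is not given, so some of its reads may belong to that gene. Laptm5, a lysosomal membrane protein of blood cells, had 2.62, 2.21 and 2.42 FPKM in Control and 3.24, 2.02 and 2.43 in KSPAPN, so the KSPAPN libraries enclose the Control range (0.10, SE 0.20; -0.10 without KSPAPN library 1).

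Csf1r, the receptor for CSF1 and IL-34 on which macrophages depend, is the most abundant macrophage gene (ENSMUSG00000024621, chr18:61100598-61132149). It had 16.6, 16.3 and 15.3 FPKM in Control and 14.6, 13.2 and 14.3 in KSPAPN, so all KSPAPN values lie below all Control values. The gap is small: a log2 fold change of -0.19 (SE 0.09, interval -0.38 to 0.01, edgeR adjusted p 0.282), -0.12 under total counts and -0.22 to -0.14 when any library is left out. It is the most precisely measured of the macrophage genes, with 1181 to 1661 counts per library. Part of the gene overlaps Hmgxb3 on the opposite strand. Its ligands were counted among the genes of recruitment and cytokines, where Csf1 had a log2 fold change of 0.25 and Il34 of -0.37. Neither was called: edgeR called 0 genes in those lists, where 2.65% of all genes were called.

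Spi1 encodes PU.1, the transcription factor that sets up macrophage identity and drives Csf1r, Fc receptor and many other myeloid genes. It has the largest difference of its role with all libraries and TMM scaling, at 1.04, 0.706 and 1.08 FPKM in Control and 0.876, 0.487 and 0.483 in KSPAPN. KSPAPN libraries 2 and 3 are the lowest of all, and library 1 lies inside the Control range. That gives a log2 fold change of -0.59 (SE 0.35, interval -1.36 to 0.17, edgeR adjusted p 0.389), and -0.94 without KSPAPN library 1, where the edgeR adjusted p was 0.165; the other libraries left out gave -0.77 to -0.44, and GC and length removed -0.42. Lyz2, the lysozyme of macrophages and neutrophils, goes the other way on the strength of 1 library: 9.31, 11.5 and 7.22 FPKM in Control, 18.04, 8.77 and 8.62 in KSPAPN. Without KSPAPN library 1 its log2 fold change goes from 0.35 (SE 0.29) to -0.09, and without KSPAPN library 3 to 0.54.

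The C1q genes, C1qa, C1qb and C1qc, encode the chains that start the classical complement pathway and are made mostly by tissue macrophages. They lie side by side on chromosome 4, between 136880129 and 136898803. C1qa had 10.1, 10.035 and 12.6 FPKM in Control and 14.4, 8.57 and 9.60 in KSPAPN, and C1qc had 4.30, 3.82 and 5.27 against 5.71, 3.82 and 4.30. In both KSPAPN library 1 is highest, and the means hardly differ (log2 fold changes 0.01 with SE 0.21 and 0.06 with SE 0.21). Without that library they were -0.25 and -0.12, and with GC and length removed 0.25 and 0.27. C1qb runs from 8.60 to 13.8 FPKM and also overlaps between groups (-0.09, SE 0.20; 0.06 without KSPAPN library 2, 0.12 with GC and length removed). Cx3cr1, the fractalkine receptor of resident macrophages, had 0.659, 0.563 and 0.632 FPKM in Control and 0.829, 0.692 and 0.739 in KSPAPN. Every KSPAPN value is above every Control value, yet at this low level the interval is wide (log2 fold change 0.29, SE 0.24, interval -0.23 to 0.82, edgeR adjusted p 0.551). The exons of Cx3cr1 overlap those of Gm33858 on the opposite strand, so some of its reads may belong to that gene, as for Coro1a.

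The remaining macrophage genes that were tested overlap between groups. Fcgr1 and Fcgr3, receptors for IgG, had log2 fold changes of 0.26 and 0.34. Fcgr1 ran from 0.04 without KSPAPN library 3 to 0.56 without KSPAPN library 1, and Fcgr3 from 0.14 without Control library 1 to 0.64 without Control library 3. Fcer1g, the signalling chain they share, had 0.06 (-0.12 without Control library 1, 0.28 with GC and length removed). Tyrobp, an adaptor that signals for receptors of myeloid cells, had -0.32 (-0.14 without KSPAPN library 2, -0.10 with GC and length removed). Adgre1, the gene for F4/80, had -0.18 (0.05 without KSPAPN library 2), and Cd68, a lysosomal glycoprotein, -0.10 (0.09 with GC and length removed). Mrc1, the mannose receptor, had 0.20 (0.09 with GC and length removed), and Itgax, the integrin CD11c, 0.15 (-0.06 without Control library 2). Aif1, an actin-linked protein of macrophages, had 0.07 (-0.15 without KSPAPN library 1, 0.26 with GC and length removed), and Ccr2, the chemokine receptor of incoming monocytes, 0.05 (-0.20 without Control library 1, -0.11 with GC and length removed). The role as a whole has a median of 0.06 over its 17 tested genes, from -0.59 to 0.35; the median was 0.13 under total counts and 0.21 with GC and length removed. Cd163, a scavenger receptor, had 2 to 8 counts in any library, and Ly6c2, of inflammatory monocytes, 4 to 22. Itgam, or CD11b, had 2 to 13 counts, and 71.0% of its 100-base windows are also found in Gm49368.

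Letters in the promoters of these genes can be set beside the levels. RefSeq promoter sequence (GRCm38.p6, 250 bases before to 50 after the start) was at hand for 28 of the 41 genes, and not for Csf1r, Cd52, H2-Ab1, C1qa, Cd74, Tyrobp, Tlr4, Spi1, Cd14, Ms4a1, Cd4, Adgre1 and Cd79b. Shown are 4 that carry a match, picked for it, to let the letters be seen in class II and macrophage genes. GAGGAA, the core that PU.1 reads, and CCAAT, the Y box of class II promoters, were searched on both strands. They occur in 28.3% and 37.4% of all 32851 promoters, and in 15 and 9 of the 28 genes. The shares are per promoter and the counts per gene, and the 28 genes have 32 promoters. Capitals mark the matches, and each line runs 5' to 3' on the gene's strand. H2-Aa is at chr17:34287824-34287943 (-), H2-Eb1 at chr17:34305747-34305866 (+), C1qb at chr4:136886201-136886320 (-) and Fcgr1 at chr3:96293970-96294089 (-). A match describes the letters only.
H2-Aa: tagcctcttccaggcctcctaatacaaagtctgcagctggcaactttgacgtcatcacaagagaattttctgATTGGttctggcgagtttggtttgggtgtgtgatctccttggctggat
H2-Eb1: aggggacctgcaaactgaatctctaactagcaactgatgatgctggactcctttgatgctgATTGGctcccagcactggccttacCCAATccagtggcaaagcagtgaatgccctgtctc
C1qb: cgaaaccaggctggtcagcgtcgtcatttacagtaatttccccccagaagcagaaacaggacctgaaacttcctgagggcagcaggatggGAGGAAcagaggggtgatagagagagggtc
Fcgr1: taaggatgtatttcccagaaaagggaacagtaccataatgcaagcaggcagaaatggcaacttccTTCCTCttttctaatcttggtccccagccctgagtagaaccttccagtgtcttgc

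The most abundant of the 41 genes is Cd74, the invariant chain that guides MHC class II to its loading compartment. Its levels were 104, 80.8 and 88.4 FPKM in Control and 110.5, 78.7 and 76.2 in KSPAPN. Library 1 of each group is high, the groups overlap, and the log2 fold change was -0.03 (SE 0.15, interval -0.37 to 0.31, edgeR adjusted p 0.935), 0.07 without Control library 1, 0.04 under total counts and 0.16 with GC and length removed. Its exons overlap the microRNA gene Mir5107 on the same strand. H2-Ab1, the beta chain of the I-A molecule, differs most in this role with all libraries and TMM scaling: 40.2, 28.95 and 31.8 FPKM in Control, 35.2, 24.5 and 23.0 in KSPAPN. Again library 1 of each group is the highest, and the other KSPAPN libraries lie below all of Control.

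The log2 fold change of H2-Ab1 was -0.28 (SE 0.17, interval -0.67 to 0.11, edgeR adjusted p 0.426). It was -0.07 with GC and length removed and -0.13 without Control library 1. Without KSPAPN library 1 it was -0.49 and its edgeR adjusted p 0.0650, the lowest that any of the 32 genes reached in any alternative. H2-Eb1, the I-E beta chain, whose promoter carries the CCAAT matches shown above, had 46.1, 41.7 and 44.8 FPKM in Control and 57.1, 32.3 and 37.1 in KSPAPN. Its KSPAPN libraries spread to both sides of the narrow Control range (log2 fold change -0.06, SE 0.18; 0.02 under total counts, 0.10 with GC and length removed, -0.33 without KSPAPN library 1 and 0.11 without KSPAPN library 2). H2-Aa, the I-A alpha chain, had 28.7, 24.98 and 23.9 FPKM in Control and 31.2, 26.2 and 26.5 in KSPAPN, overlapping, at 0.12 (SE 0.11, interval -0.12 to 0.37; 0.04 without KSPAPN library 1 and 0.20 without Control library 1).

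Among the innate sensing receptors, Tlr4 detects bacterial lipopolysaccharide and Tlr2 bacterial lipoproteins, and both are made by tubular epithelium as well as by leukocytes. Tlr4 (ENSMUSG00000039005, chr4:66827584-66930284) had 0.291, 0.519 and 0.348 FPKM in Control and 0.603, 0.610 and 0.669 in KSPAPN, from 30, 50 and 34 counts against 78, 62 and 77. All KSPAPN libraries are above all Control libraries, a log2 fold change of 0.71 (SE 0.28, interval 0.08 to 1.33, edgeR adjusted p 0.212), from 0.54 to 0.98 without 1 library. Tlr2 (ENSMUSG00000027995, chr3:83836272-83841767) had 0.877, 0.268 and 0.529 FPKM in Control and 1.17, 0.853 and 1.025 in KSPAPN, from 49, 14 and 28 counts against 82, 47 and 64.

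Control library 2 is the lowest for Tlr2 and Control library 1 stands just above KSPAPN library 2, so the groups overlap. The log2 fold change was 0.87 (SE 0.39, interval 0.01 to 1.73, edgeR adjusted p 0.264), and 0.54 to 1.35 when a library is left out. Neither receptor passed the adjusted threshold in any alternative. Leaving out Control library 3 or KSPAPN library 3 took the unadjusted p of both above 0.05, and so did limma with 0.1 added or with no filter. Tlr2 alone was above it without Control library 2 or KSPAPN library 1. Tlr4 alone was above it without Control library 1 and in limma with 1 added. Cd14, the co-receptor that hands lipopolysaccharide to TLR4, had 1.34, 3.45 and 2.10 FPKM in Control and 2.65, 1.18 and 2.24 in KSPAPN. Control library 2 is the highest and KSPAPN library 2 the lowest. Its log2 fold change was -0.16 (SE 0.39, interval -1.019 to 0.70, edgeR adjusted p 0.864), 0.25 without that Control library, -0.44 without Control library 1 and -0.0026 with GC and length removed.

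The neutrophil genes encode the subunits of calprotectin and were too low to test. S100a9 had 6, 3 and 2 counts in Control and 14, 2 and 7 in KSPAPN, and S100a8 had 0, 2 and 0 against 9, 0 and 2. KSPAPN library 1 has the most of each, and the groups overlap. In a library with 0 counts, up to 3 expected counts cannot be told from none, which is 0.144 to 0.175 CPM across these libraries; that floor covers counting error only. Csf3r, the receptor for G-CSF on neutrophils, is the 1 gene of 10 further neutrophil genes with enough counts, at 9, 19 and 10 in Control and 17, 0 and 14 in KSPAPN (log2 fold change -0.55). It was -0.0096 without KSPAPN library 2, the library at 0, and -1.001 without KSPAPN library 1.

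Of the lymphocyte genes, Nkg7, a granule protein of cytotoxic T cells and natural killer cells, is the most abundant by the mean of all libraries, though in Control Cd8a is higher: 1.004, 0.252 and 0.934 FPKM in Control, 0.564, 0.838 and 0.739 in KSPAPN. The Control libraries spread around the KSPAPN ones, and the log2 fold change was -0.04 (SE 0.53, interval -1.21 to 1.13, edgeR adjusted p 0.979; 0.26 without Control library 1, -0.44 without Control library 2, 0.01 under total counts and 0.16 with GC and length removed). Cd8a, the co-receptor of cytotoxic T cells that some dendritic cells also carry, has the largest difference of its role with all libraries and TMM scaling. It had 1.13, 1.14 and 0.422 FPKM in Control and 0.342, 0.391 and 0.703 in KSPAPN, from 76, 72 and 27 counts against 29, 26 and 53. Control libraries 1 and 2 are high, Control library 3 lies among the KSPAPN ones, and KSPAPN library 3 is the highest of its group.

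For Cd8a the log2 fold change was -0.90 (SE 0.42, interval -1.83 to 0.03, edgeR adjusted p 0.285; DESeq2 adjusted p 0.242). It ran from -1.28 to -0.69 as libraries were left out. Cd4, on helper T cells and some macrophages, had 17, 5 and 6 counts in Control and 25, 3 and 17 in KSPAPN (0.44, SE 0.67; -0.03 without KSPAPN library 1, 1.14 without Control library 1). Cd79b, of the B cell receptor, had -0.27 (SE 0.52; 0.05 without KSPAPN library 3, -0.55 without KSPAPN library 1). The rest were not tested: Cd3e and Cd3g, chains of the T cell receptor complex, had 4 to 18 and 3 to 15 counts per library, Cd79a, the partner of Cd79b, had 1 to 12, and Ms4a1, or CD20, had 0 to 9. At such counts only a large difference could have been seen.

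A pattern by library runs through many of the genes, though not through every role. KSPAPN library 1 is the highest of the 6 for 15 of the 32 tested genes (46.9%, where it is highest for 3203 of all 16017 tested genes), and KSPAPN library 2 is the lowest for 13 (40.6%, against 17.1% of all genes). KSPAPN library 2 is the highest for 0 of them. The median log2 deviation of the 32 genes from their own mean was 0.09, -0.06 and 0.01 in Control and 0.31, -0.22 and -0.02 in KSPAPN. The median over all tested genes was 0.01, 0.01 and 0.01, and 0.02, -0.01 and 0.01. Lyz2, C1qa, Laptm5, Cd74 and H2-Eb1, described above, each have their highest value in KSPAPN library 1. The tested lymphocyte genes do not follow: KSPAPN library 1 is highest for 1 of 4 and lowest for 1. The untested ones, Cd3e, Cd3g, Cd79a and Ms4a1, at few counts, are each highest in KSPAPN library 1 and lowest in KSPAPN library 2 by CPM. Among the innate sensing receptors KSPAPN library 1 is highest for 1 of 3, and the median deviation in KSPAPN library 2 is above 0, at 0.25.

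**Figure D3:**
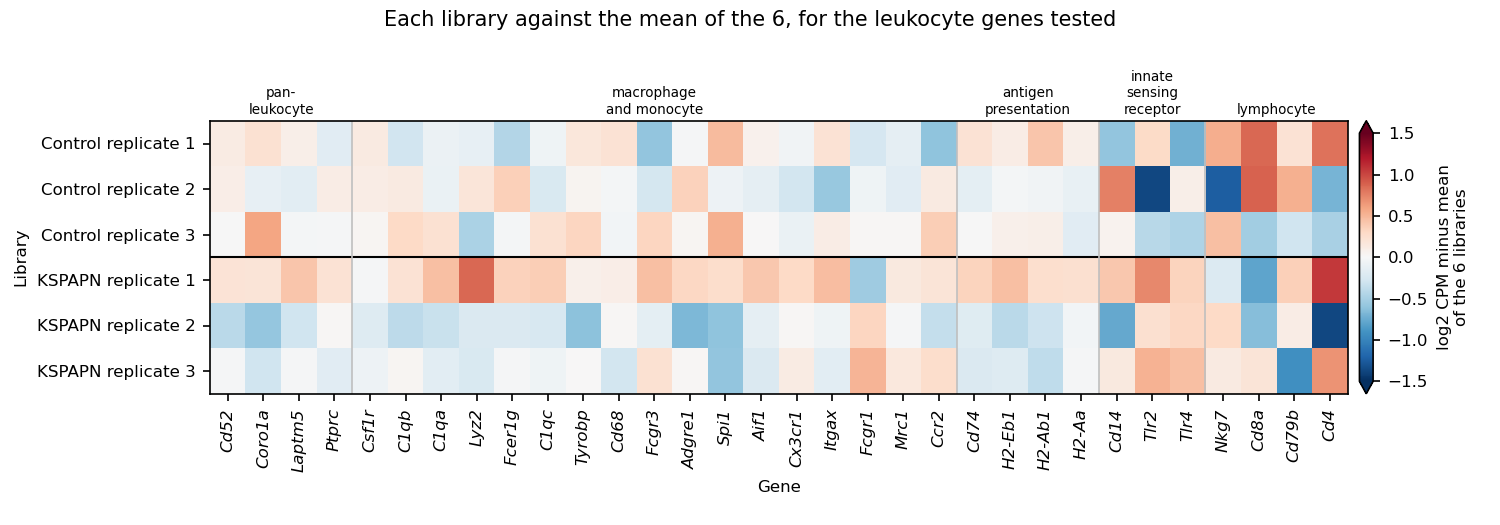
Log2 CPM of each tested gene in each library, less the gene's mean over the 6 libraries, as a heat map. Red is above the mean and blue below; the black line parts the groups. KSPAPN library 1 is mostly red and KSPAPN library 2 mostly blue.

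The same libraries stand out in summed levels. The 41 genes add up to 528, 467 and 486 CPM in Control and 584, 408 and 434 in KSPAPN (mean 494 with SD 30.9, against 475 with SD 95.4). The macrophage and monocyte genes give 155, 159 and 160 against 177, 129.9 and 146, so the Control libraries lie close together and the KSPAPN ones on both sides. The antigen presentation genes, led by Cd74, give 329, 265 and 283 against 355, 243 and 246. The lymphocyte genes are low throughout, at 7.98, 6.99 and 4.399 against 6.06, 3.41 and 5.67. None of these sums separates the groups.

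**Figure D4:**
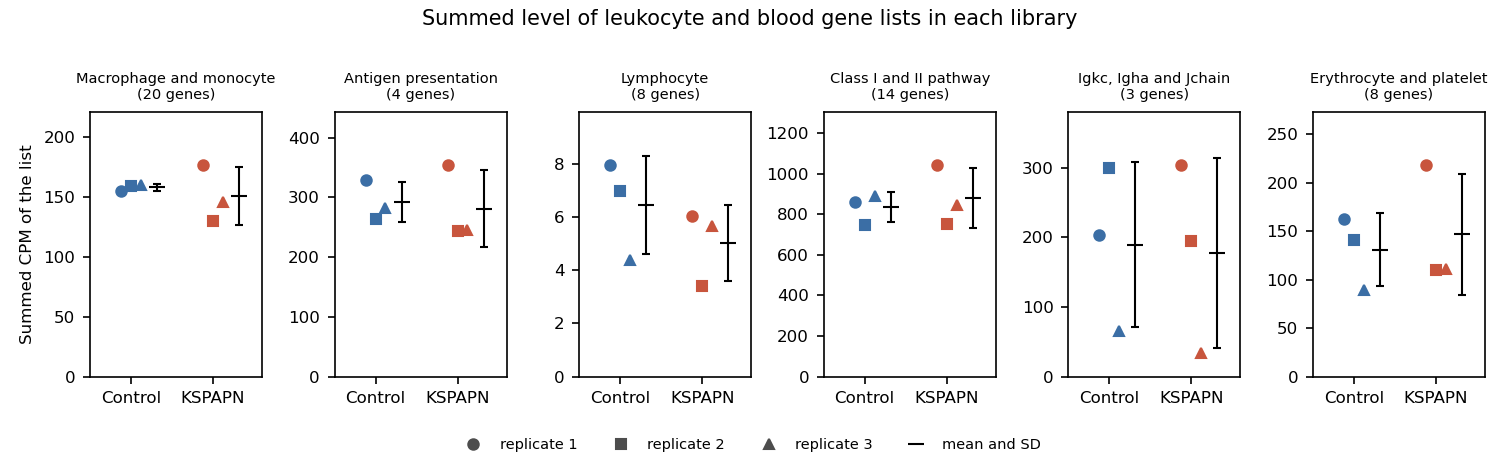
Summed CPM in each library of macrophage, antigen presentation and lymphocyte genes among the 41, and of lists of MHC, immunoglobulin, and erythrocyte and platelet genes. Blue is Control and red is KSPAPN, with the mean and SD beside each group.

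Other genes of the same cells and pathways were measured too. Lists of 113 further leukocyte genes, 63 of them tested, had 0 calls in edgeR, where 2.65% of all genes were called. DESeq2 called 2, where 6.88% of the genes to which it gave an adjusted p were called. Some of the 63, Trac and Csf3r among them, had no DESeq2 adjusted p. At an unadjusted p below 0.05 edgeR had 6 (3 higher, 3 lower), beside 18.7% of all genes, with a median log2 fold change of 0.03. In them too KSPAPN library 1 is most often the highest (33 of 63). KSPAPN library 2 is the lowest for 22, and Control library 2 for 18 (28.6%, against 16.04% of all genes). By list, the medians were 0.04 for 15 tested of 20 further macrophage genes, 0.05 for 12 of 20 genes of recruitment and adhesion, 0.06 for 11 of 15 cytokine and NF-kB genes, and 0.02 for 12 of 14 MHC genes. Dendritic cell genes gave 0.16 (3 of 8), T and natural killer cell genes -0.16 (3 of 16), and B and plasma cell genes -0.01 (6 of 10). The summed level of the 16 T and natural killer cell genes, led by Trac, does part the groups, at 8.36, 7.22 and 7.51 CPM in Control and 6.19, 5.42 and 4.92 in KSPAPN (mean 7.70 with SD 0.593, against 5.51 with SD 0.640). Trac is the only 1 of the 16 with a mean level of at least 1 FPKM, so the sum leans on that gene. Only 3 of the 16 were tested, and they go both ways, from -0.94 to 0.23. Of these, 1 does not overlap between groups in CPM, where 24.5% of all genes do not. In CPM no other leukocyte list parts the groups. In FPKM the further macrophage genes do so too, at 493, 477 and 469 in Control and 453, 384 and 363 in KSPAPN. Most of each of those sums is Cyba, described below, which parts the groups by itself. Of the 15 tested genes in that list, 9 have a log2 fold change above 0 and 6 below. Il6, Vsig4, Elane and H2-Eb2 had 0 counts in all libraries.

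Cyba, the p22phox subunit of the phagocyte oxidase and also made by tubule cells, is the most abundant of the further macrophage genes. It had 370, 356 and 344 FPKM in Control and 319, 265 and 242 in KSPAPN, all KSPAPN values below all Control values. Its log2 fold change was -0.37 (SE 0.11, edgeR adjusted p 0.121, DESeq2 adjusted p 0.0379), and -0.10 with GC and length removed. Without KSPAPN library 1 edgeR called it (adjusted p 0.0183). B2m, the light chain of MHC class I, which every nucleated cell makes, had 201, 198 and 245 FPKM against 297, 250.3 and 279. There the KSPAPN libraries are all higher, at 0.37 (SE 0.11, edgeR adjusted p 0.120, DESeq2 adjusted p 0.0421). With no filter on low counts edgeR called both (adjusted p 0.0167 for Cyba and 0.0198 for B2m).

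Trac, the constant part of the T cell receptor alpha chain, had 2.37, 1.91 and 1.34 FPKM in Control and 0.964, 1.23 and 0.723 in KSPAPN. Like Cd8a it is lower in KSPAPN, here with no overlap (log2 fold change -0.94, SE 0.38, edgeR adjusted p 0.215), and neither passed the adjusted threshold. Cd3e and Cd3g, of the same receptor, overlap at a few counts. Cd4 had a log2 fold change of 0.44 and Nkg7 of -0.04. Of the 3 tested genes in the list of Trac, 1 is above 0, at 0.23. Cx3cl1, the ligand of CX3CR1 that epithelium and endothelium display, had 19.4, 19.9 and 19.6 FPKM against 21.7, 13.7 and 14.9. KSPAPN library 1 is the highest and the others the lowest of all. The log2 fold change was -0.22 with all libraries and -0.44 without KSPAPN library 1, where edgeR called it (adjusted p 0.0257). It was -0.09 without KSPAPN library 2 and -0.14 without KSPAPN library 3. Nfkbia, the NF-kB inhibitor that NF-kB itself induces, had -0.04 (0.13 without KSPAPN library 3, 0.03 under total counts, 0.12 with GC and length removed), and Zbtb46, of classical dendritic cells, 0.16. Chosen for a remark after their values were seen, Cxcl1, a neutrophil attractant, had 1.17 (SE 0.40, edgeR adjusted p 0.149), H2-DMb1, of class II loading, 0.57 (called by edgeR with no filter, adjusted p 0.0138), and Itgae, or CD103, -0.67.

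Lists for other cells were measured beside these. Erythrocyte and platelet genes, a mark of blood in the tissue, summed to 163, 141 and 89.7 CPM in Control and 219, 110.4 and 111 in KSPAPN; 5 of 8 were tested, 0 were called, the median log2 fold change was 0.18, and KSPAPN library 1 was highest in 4 of the 5. Hbb-bs, a beta globin and the most abundant of them, had 105, 93.5 and 60.2 FPKM against 145, 72.6 and 77.8 (0.20; -0.18 without KSPAPN library 1). KSPAPN library 1 is thus high for blood genes as well as for leukocyte genes; their part in the result was not tested. Proximal tubule genes summed to 13579, 12608 and 11674 CPM in Control and 10646.5, 10426 and 11244 in KSPAPN, so the sums of the groups do not overlap, with a median log2 fold change of -0.22 over 10 genes. KSPAPN library 1 is the lowest for 8 of the 10, with a median log2 deviation of -0.28, where blood and leukocyte genes are high. Of these edgeR called 1, beside 2.65% of all genes. DESeq2 called 2, Slc22a6 and Slc13a3, whose groups do not overlap, beside 6.88% of the genes to which it gave an adjusted p. The edgeR call is Slc22a6, the organic anion carrier OAT1, at 272 FPKM in Control and 197 in KSPAPN (-0.46, SE 0.10, edgeR adjusted p 0.0388). It was called without KSPAPN library 1, and not when any other was left out (edgeR adjusted p 0.0819 to 0.144), under total counts (0.0521) or in limma (adjusted p 0.101 to 0.165). Its log2 fold change stayed between -0.50 and -0.39 in these fits. Their part in the result was not tested.

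Distal nephron genes had a median of 0.08 over 9 genes, with 1 call in edgeR, beside 2.65% of all genes. DESeq2 called 2, beside 6.88% of the genes to which it gave an adjusted p. They are Slc12a1, higher, and Slc4a1, an anion exchanger, lower (-0.71, SE 0.20, edgeR adjusted p 0.0893). At an unadjusted p below 0.05 edgeR had 1 higher and 3 lower, Slc12a3, Aqp3 and Slc4a1, where 18.7% of all genes pass. The gene called by edgeR, Slc12a1, the NKCC2 carrier of the thick ascending limb, went from 196 to 279 FPKM (0.52, SE 0.11, edgeR adjusted p 0.0437). Among the fits with a library left out it was called only in that without KSPAPN library 1 (the others gave edgeR adjusted p 0.0744 to 0.193), and it was not called with GC and length removed (0.0747) or in limma (adjusted p 0.115 to 0.193). Its log2 fold change stayed between 0.45 and 0.59. Umod, uromodulin from the same segment and the most abundant of the list, had 678 and 653 FPKM (-0.04; 0.08 without KSPAPN library 2, 0.03 under total counts, 0.05 with GC and length removed). Endothelial genes had a median of 0.08 over 8 (Plvap, of fenestrated vessels, -0.27, and -0.03 with GC and length removed). Podocyte genes had 0.19 over 6 (Podxl, a surface sialoglycoprotein, 0.24). Fibroblast and smooth muscle genes had 0.25 over 8 (Acta2, smooth muscle actin, -0.08, with 0.03 without KSPAPN library 2 and 0.02 with GC and length removed). Control library 2 is the lowest for 6 of the 6 podocyte genes and for 6 of the 8 fibroblast and smooth muscle genes. Adipocyte genes had 0.34 over 3 tested of 6, led by Fabp4 (0.34), and sums of 37.8, 39.8 and 38.1 CPM in Control and 46.1, 41.1 and 59.0 in KSPAPN, which do not overlap. Fabp4 is the only 1 of the 6 with a mean level of at least 1 FPKM, so those sums lean on that gene. Lep had 1 count in a single library, and Plin1, of the lipid droplet, 1 to 10 counts. Tubular injury genes had 0.14 over 7 tested of 8 (Spp1, osteopontin, 0.12). In these last 5 lists edgeR called 0 genes, beside 2.65% of all genes. DESeq2 called 1, a tubular injury gene, beside 6.88% of the genes to which it gave an adjusted p. At an unadjusted p below 0.05 edgeR had 1 podocyte, 1 fibroblast and smooth muscle and 1 adipocyte gene, all higher, and 1 tubular injury gene, lower, beside 18.7% of all genes.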

How the data were processed

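The deposited table gives, per the labels and headers, a read count and an FPKM for 54532 genes in 6 libraries, each from the pooled RNA of 3 mice. The authors' processing notes name STAR 2.5, TopHat, HTSeq 0.6.1, DESeq2 and edgeR; the sources read here state neither the roles and order of these tools nor the genome build, gene annotation or strandedness. Libraries held 17183358 to 20871173 counts. Coordinates are GENCODE M21, to which 54495 genes matched.

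Control and KSPAPN were compared in edgeR 4.0.16 under R 4.3.3 (quasi-likelihood test, TMM scaling, filterByExpr with a minimum count of 10 and total of 15), and p-values were adjusted by Benjamini-Hochberg over all 16017 tested genes. Alternatives were total counts, RLE scaling, DESeq2 1.42.0, no filter, limma 3.58.1 on log2 FPKM with 1 or 0.1 added, removal of trends with GC content and length, a block, and leaving out each library. The fit was tested on simulated data. Values by library are given for Ptprc, for genes at an unadjusted p below 0.05, and for the most abundant and most different gene of each role; some others were added by interest. The members and lists were chosen with earlier results of these data known. Shared 100-base windows and exon overlaps came from the reference, and promoters from RefSeq.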

Additional observations from a re-analysis of the deposited data

How the results depend on the processing

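Each group has 3 libraries, each a pool of 3 mice, so variation between mice is not seen and small differences in genes at few counts would be missed. Leukocyte genes are a small share of kidney RNA, and the cells that made each transcript were not identified. Of the 32 tested genes, 13 kept their sign in all 15 alternatives and 19 did not; none was called in any. The cause of the spread between KSPAPN libraries was not tested.

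The number of genes called higher across the table, 63, was 185 in DESeq2, 301 with no filter, 100 with GC and length removed, and 5 to 162 without 1 library. In limma it was 2 on log2 FPKM with 1 added, 3 with 0.1 added and 1 with no filter. The number called lower, 361, was 195 under total counts, 752 in DESeq2, 1038 with no filter, 6, 9 and 0 in those limma fits, and 34 to 571 without 1 library. Replicate numbers share only a number: no label says that libraries were paired. Each library correlates best with the library of its own number in the other group, at 0.054, 0.154 and 0.173, a hint from the data only. With the replicate number as a block, 224 genes were called higher and 705 lower. Of the 32 genes 0 were called and 4 had an unadjusted p below 0.05 (Tlr2 and Tlr4 higher, Csf1r and H2-Ab1 lower), beside 24.3% of all genes, and Cyba was called (edgeR adjusted p 0.0469).

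The median of the macrophage genes, 0.06, ran from -0.13 to 0.16 without 1 library and was 0.21 with GC and length removed, and that of the innate sensing receptors, 0.71, was 0.23 in both limma fits with 1 added. Signs turned with GC and length removed for Ptprc (-0.10), Cd52 (0.10), Cd68 (0.085), C1qb (0.12), Ccr2 (-0.11), Cd74 (0.16), H2-Eb1 (0.10), Nkg7 (0.16), Nfkbia (0.12), Igkc (0.14), Umod (0.052) and Acta2 (0.023). They turned under total counts for Cd74 (0.041), H2-Eb1 (0.023), Nkg7 (0.0135), Nfkbia (0.033), Igkc (0.026) and Umod (0.030). In limma C1qa was -0.030 with 1 added, -0.035 with 0.1 added and -0.030 with no filter, and Nkg7 was 0.014, 0.13 and 0.014. With the replicate block they were -0.023 and 0.029.

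Without 1 library the log2 fold change ran from -0.031 to 0.15 for Ptprc, -0.10 to 0.25 for Laptm5, -0.25 to 0.0275 for Cd52, -0.16 to 0.0048 for Cd68, -0.39 to 0.049 for Adgre1, -0.25 to 0.15 for C1qa, -0.24 to 0.062 for C1qb and -0.12 to 0.19 for C1qc. It ran from -0.086 to 0.54 for Lyz2, -0.057 to 0.31 for Itgax, -0.12 to 0.28 for Fcer1g, -0.15 to 0.19 for Aif1, -0.20 to 0.26 for Ccr2, -0.22 to 0.070 for Cd74 and -0.33 to 0.11 for H2-Eb1. For Cd14 it was -0.44 to 0.25, for Cd4 -0.030 to 1.14, for Cd79b -0.55 to 0.052 and for Nkg7 -0.44 to 0.26. Outside the 41 genes it was -0.27 to 0.13 for Nfkbia, -0.67 to 0.46 for Igkc and -0.18 to 0.39 for Hbb-bs. For Umod it was -0.20 to 0.078, for Acta2 -0.24 to 0.0275 and for Plvap -0.43 to -0.11. For Zbtb46 it was 0.043 to 0.32, for Podxl 0.080 to 0.35, for Fabp4 0.18 to 0.45 and for Spp1 0.015 to 0.25.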

Other observations

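Immunoglobulin transcripts, made by plasma cells, vary widely between libraries. Igkc, the kappa constant region, had 122, 191 and 41.7 FPKM in Control and 187, 127 and 20.3 in KSPAPN, and Igha, of IgA, had 40.96, 57.2 and 12.01 against 57.7, 36.2 and 6.005. Jchain, which joins IgA and IgM chains, had 9.43, 15.1 and 3.68 against 15.1, 10.2 and 2.51. Library 3 of each group is the lowest for all 3 genes, and the groups overlap. The log2 fold change of Igkc was -0.07 (SE 0.64), 0.46 without Control library 2, 0.03 under total counts and 0.14 with GC and length removed.

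Among the B cell genes, Cd79b, at 0.415, 0.524 and 0.278 FPKM in Control and 0.450, 0.382 and 0.169 in KSPAPN, also has library 3 lowest in each group. Cd79a and Ms4a1, at few counts, do not: in KSPAPN both are lowest in library 2, Cd79a at 0.0375 FPKM and Ms4a1 at 0 counts.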
